A study of Mus musculus with 4 samples.

Results

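The 9 genes Tspan1, Tspan8, Tspan15, Tspan18, Cd9, Cd81, Cd63, Cd82 and Cd151 encode tetraspanins, and they were taken by name from the 32285 genes counted in mouse mammary organoids. All 9 are in the gene list of every library, and all 9 passed the filter on low counts of the lineage comparison. Organoids were grown from mammary epithelial cells of mice aged 9 to 11 months, which were either wild type or Brca2mut/WT, a strain with a truncating mutation in a single copy of the DNA repair gene Brca2. They were left untreated (control) or given 1 mM hydroxyurea (HU), a drug that stalls DNA replication, for 24 h with 4 days of recovery. Frozen organoids were thawed, cultured for 3 days, dissociated and captured as single cells. There was 1 library for each of the 4 pairings of genotype and treatment. Strings of 4 values are given in library order, which is control then HU of wild-type organoids, followed by control then HU of Brca2mut/WT organoids.

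Each library title names 2 replicates, and cells carried 4 antibody tags for which no key was found in the labels or methods, so cells with a single dominant tag were handled as 4 unlabelled pools within a library. The passage, mouse and replicate behind a pool are not known, and pool 1 of a library need not match pool 1 of another. The study sequenced early and late passages, with HU given again at each passage, and the labels do not give the passage. A library may therefore hold cells of both passages, and its HU cells may have had a single exposure or several.

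Tetraspanins are small membrane proteins that hold other proteins together in patches of the cell surface and of internal vesicles. Some bind integrins, the receptors for the matrix around epithelial cells, and others carry the protease ADAM10 to the surface, where it cuts receptors and adhesion proteins. The mammary epithelium has a basal layer of contractile cells and 2 luminal lineages, the hormone receptor positive (HR+) cells and the hormone receptor negative (HR-) cells, which include the cells that make milk.

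Tspan8, Tspan15 and Tspan1 are the members whose levels differed most between cells of the HR- luminal lineage, and their promoters are shown for that reason. RefSeq promoters on GRCm38.p6 were found for 8 of the 9 members, each from 250 bases before to 50 bases after a transcript start. Capitals mark matches to any of 8 short motifs searched on both strands.
Tspan8 promoter, chr10:115817034-115817333, plus strand: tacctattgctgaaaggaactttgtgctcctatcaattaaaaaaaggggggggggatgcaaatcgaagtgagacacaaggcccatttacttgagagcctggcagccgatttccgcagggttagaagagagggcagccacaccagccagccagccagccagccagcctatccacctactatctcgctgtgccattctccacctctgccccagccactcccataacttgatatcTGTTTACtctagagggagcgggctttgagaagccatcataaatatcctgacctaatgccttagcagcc
Tspan15 promoter, chr10:62231169-62231468, minus strand: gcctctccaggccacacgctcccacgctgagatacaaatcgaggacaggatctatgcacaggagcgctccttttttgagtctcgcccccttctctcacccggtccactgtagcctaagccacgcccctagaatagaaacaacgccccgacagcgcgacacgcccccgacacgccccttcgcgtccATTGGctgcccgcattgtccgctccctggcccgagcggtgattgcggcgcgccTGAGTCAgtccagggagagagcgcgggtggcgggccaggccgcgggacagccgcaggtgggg
Tspan1 promoter, chr4:116167549-116167848, minus strand: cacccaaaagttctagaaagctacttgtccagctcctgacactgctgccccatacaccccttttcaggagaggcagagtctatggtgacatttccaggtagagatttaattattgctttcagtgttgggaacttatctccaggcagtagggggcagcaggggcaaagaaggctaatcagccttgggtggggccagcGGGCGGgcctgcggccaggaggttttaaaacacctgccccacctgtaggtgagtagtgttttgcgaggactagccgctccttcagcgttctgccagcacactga
The Tspan8 window held the forkhead motif TGTTTAC, which 3.65% of the 32851 promoters in the table hold. The Tspan15 window held CCAAT on the other strand, a motif in 37.4% of promoters, and the AP-1 motif TGACTCA, also on the other strand, in 5.20%. The Tspan1 window held the GC box GGGCGG, in 35.7%. The remaining motifs were the TATA box TATAAA (13.6% of promoters), the ETS motif AGGAAG (35.4%), the STAT motif TTCNNNGAA (8.30%) and the E-box CACGTG (7.15%), and these letters were in none of the 3 windows. No motif was shared by the 3 windows. Tspan15 had 29 CG dinucleotides in its window, against 5 for Tspan8, 6 for Tspan1 and a median of 7 over all promoters.

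On GRCm38 (GENCODE M21), Tspan8 (ENSMUSG00000034127) lies on chromosome 10 from 115816832 to 115849893 on the plus strand. Tspan15 (ENSMUSG00000037031) lies on the same chromosome from 62185396 to 62231251 on the minus strand, and Cd63 (ENSMUSG00000025351) from 128900989 to 128912822. Tspan1 (ENSMUSG00000028699) is on chromosome 4 from 116161869 to 116167601. Tspan18 (ENSMUSG00000027217; chromosome 2, 93201760 to 93334505) and Cd82 (ENSMUSG00000027215; 93419111 to 93463140) are neighbours on the minus strand with 84605 bases between them. Cd151 (ENSMUSG00000025510; 141467392 to 141471473) and Cd81 (ENSMUSG00000037706; 143052739 to 143067934) are on chromosome 7, and Cd9 (ENSMUSG00000030342; 125460266 to 125494791) is on chromosome 6. Values below cover whole genes, since the counts do not separate transcripts or exons.

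The libraries held 1062504699 gene UMIs (unique molecular identifiers, which count captured RNA molecules) in 33268 cells. Of these, 17360 cells with 1000 to 6000 detected genes and under 5% mitochondrial UMIs were kept, with a median of 24180 to 26893 UMIs per cell. Cells with at least 500 CPM of Krt14 (CPM, counts per 1e6 gene UMIs) were taken as basal (2217), those with at least 300 CPM of Areg as HR+ luminal (569) and those with under 300 CPM of both as HR- luminal (14008). A further 109 cells were high for both genes and 457 were unassigned, and both groups were left out. The names were checked against marker lists. The 10 HR- luminal markers summed to 27580 to 31962 CPM in HR- luminal and to 3413 to 4539 in basal cells across libraries. The 10 basal markers summed to 3587 to 3967 CPM in basal and 133 to 175 in HR- luminal cells. Krt5 was the largest basal marker (1822 to 2861 CPM), and 7 of the 10 had at least 10 CPM in basal cells of all libraries. Contractile genes varied in basal cells, with Acta2 at 327 to 916 CPM and Myh11 at 4.11 to 33.4. In the wild-type control, Mylk was lower in basal (8.66 CPM) than in HR- luminal cells (11.6), and elsewhere it was higher in basal cells. The HR+ luminal markers summed to 5126 to 8124 CPM in HR+ luminal cells, 1009 to 1210 in basal and 179 to 191 in HR- luminal cells, with Cd36 at 0 in HR+ luminal cells. The HR- luminal markers summed to 5069 to 5845 CPM in those same HR+ luminal cells, a range that overlaps that of their own list. Krt18 gave 2910 to 3883 CPM of this, above its 1950 to 2152 in HR- luminal cells. Aldh1a3 was also higher in the HR+ luminal cells of each library, with 26.7 to 78.8 CPM against 18.0 to 31.5 in HR- luminal cells. The remaining markers of the list were lower in HR+ luminal cells. Among these, Csn3 gave 677 to 1524, against 18296 to 21471 in HR- luminal cells, and Kit 2.31 to 7.35, against 76.0 to 104.5. The part of mixed or free RNA in the HR+ luminal values was not tested. Ly6a was the largest HR+ luminal marker, with 3236 to 6000 CPM in HR+ luminal and 928 to 1097 in basal cells. Immune markers stayed at or under 0.732 CPM and endothelial markers at or under 8.10 in every lineage, while the fibroblast list summed to 704 to 1661 CPM in HR+ luminal cells, nearly all of it from Dcn (702 to 1661 CPM), whose part in the HR+ luminal values was not tested. Library pairs shared 16 to 30 cell barcodes. Brca2 itself had 5.46, 5.13, 4.32 and 3.90 CPM in HR- luminal cells, and a truncating mutation need not lower its RNA.

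The first comparison asked in which epithelial lineage each tetraspanin is expressed. Tspan8 and Tspan15 were the HR- luminal members, Tspan18 was the basal member, Tspan1 and Cd9 were highest in HR+ luminal cells, and Cd81 was highest in HR- luminal cells over a broad base in all lineages. Cd63 and Cd151 were lowest in HR- luminal cells, and Cd82 was lowest in basal cells. Sums of each lineage in each library were tested with edgeR's quasi-likelihood test with the library as a block (12 sums), and a gene was called where its Benjamini-Hochberg adjusted p over 13251 genes was under 0.05 and its fold at least 1.5.

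**Figure D1:**
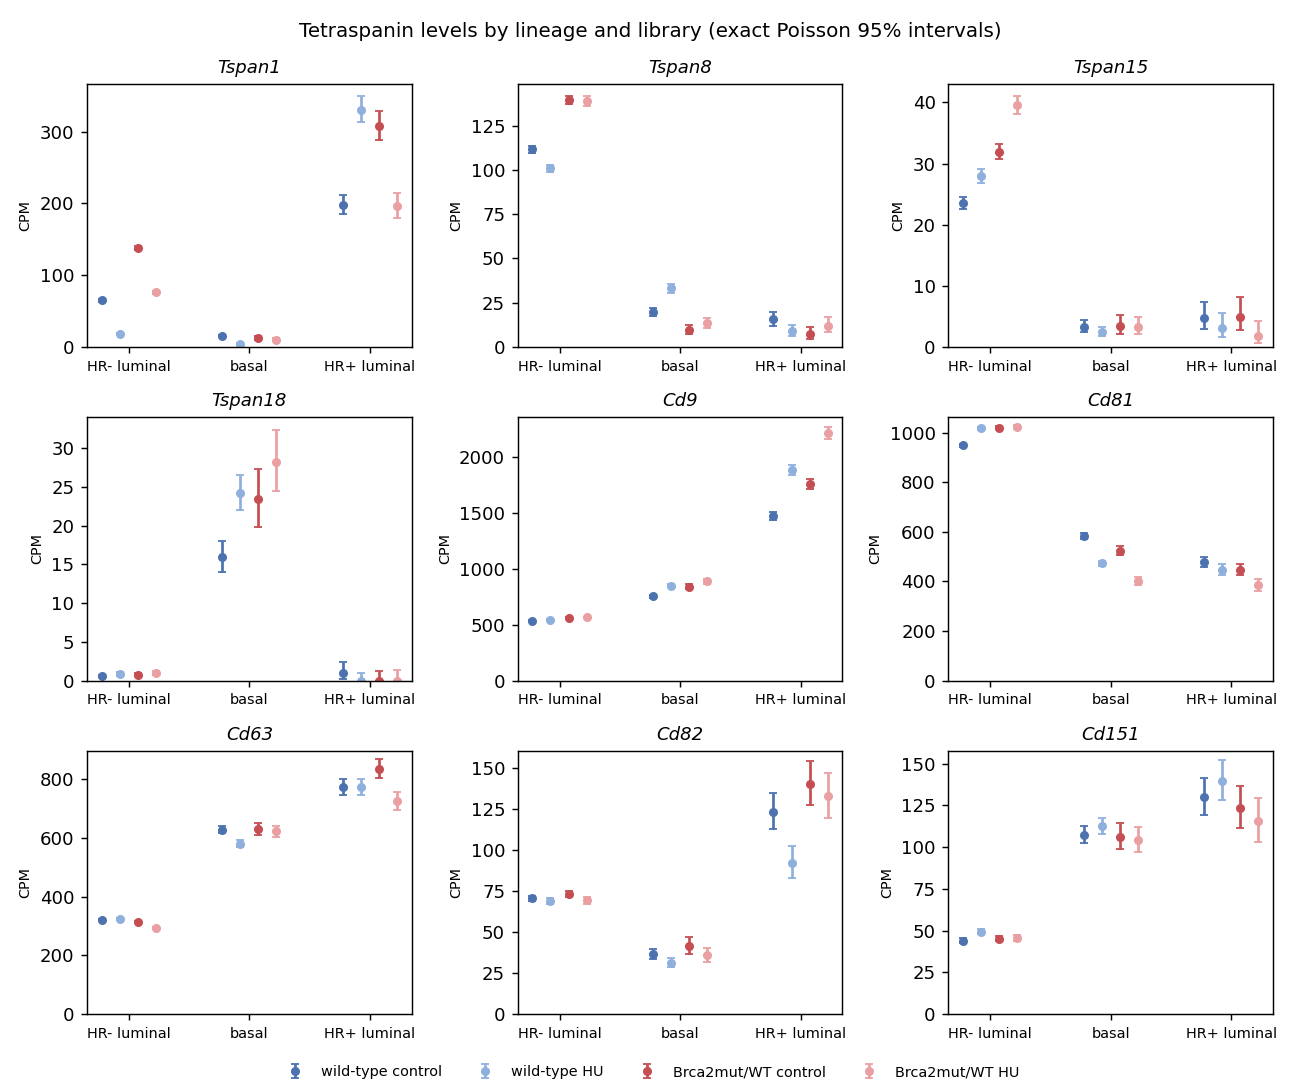
Level of each member (vertical axis, CPM, starting at 0) in HR- luminal, basal and HR+ luminal cells, with 1 point per library and exact Poisson 95% intervals, which cover counting error only. Tspan8 and Tspan15 are far higher in HR- luminal cells of every library, and Tspan18 in basal cells.

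Tspan8, a surface tetraspanin used elsewhere to mark subsets of mammary epithelial cells, was at 112 CPM (exact Poisson 95% interval 110 to 114), 101 (98.8 to 103), 139 (137 to 142) and 139 (136 to 142) in the HR- luminal lineage, in library order. In basal cells of the same libraries it had 19.6, 33.1, 9.54 and 13.5 CPM. HR+ luminal cells had 15.6, 8.93, 7.26 and 12.1 CPM. The lowest HR- luminal value was thus well above every value of the other lineages, and basal and HR+ luminal values overlapped. The fold was 7.01 against basal cells (log2 2.81 ± 0.28 SE, adjusted p = 4.97e-06) and 12.8 against HR+ luminal cells (log2 3.68 ± 0.35, adjusted p = 3.21e-06). Between HR+ luminal and basal cells the log2 fold change was -0.87 ± 0.39 (adjusted p = 0.084), which missed the threshold. The basal level of wild-type HU rested largely on pool 2, with 42.1 CPM in 283 cells, against 11.2 to 19.8 in its other pools.

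Tspan15, one of the tetraspanins that carry ADAM10, was at 23.6, 27.9, 31.9 and 39.5 CPM in the HR- luminal lineage. Basal cells had 2.46 to 3.43 CPM and HR+ luminal cells 1.83 to 4.95. HR- luminal cells thus stood apart in every library, 10.6-fold above basal cells (log2 3.41 ± 0.18, adjusted p = 2.55e-08) and 9.03-fold above HR+ luminal cells (log2 3.18 ± 0.22, adjusted p = 2.62e-07). The other lineages differed from each other by 0.24 ± 0.30 on the log2 scale (adjusted p = 0.54).

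Counts per cell gave the same order. At a fixed depth of 5000 UMIs per cell, 28.6%, 28.1%, 34.6% and 35.1% of HR- luminal cells held a Tspan8 UMI, against 8.79%, 10.9%, 5.41% and 7.29% of basal and 4.43%, 2.92%, 2.65% and 4.26% of HR+ luminal cells. Cells under that depth were left out (122 to 288 HR- luminal, 24 to 72 basal and 9 to 29 HR+ luminal cells a library). Without thinning, the HR- luminal shares were 54.3%, 51.2%, 56.9% and 58.7%. A Tspan15 UMI was found in 9.84% to 16.6% of thinned HR- luminal cells and in 0.347% to 1.57% of thinned basal cells. Median depth was 24718 to 27596 UMIs in HR- luminal, 20026 to 22130 in basal and 24996 to 27292 in HR+ luminal cells. The low shares outside the HR- luminal lineage may include UMIs from free RNA in the droplets, which was not tested.

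Tspan1, an epithelial tetraspanin, was the member with the widest range. It had 199, 331, 308 and 197 CPM in HR+ luminal cells, 64.8, 18.7, 138 and 76.2 in HR- luminal cells and 15.2, 4.23, 12.7 and 9.83 in basal cells. In each library HR+ luminal cells were highest and basal cells lowest. HR+ luminal cells were 26.1-fold above basal cells (log2 4.70 ± 0.50, adjusted p = 1.51e-05) and HR- luminal cells 7.05-fold above them (log2 2.82 ± 0.47, adjusted p = 2.91e-04). The HR- luminal level was 3.70-fold under the HR+ luminal level (log2 -1.89 ± 0.42, adjusted p = 0.00223), and this call was lost with a wider cell filter, with no upper limit on genes and under 10% mitochondrial UMIs (log2 -0.71).

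Tspan18, known from endothelial cells, had 15.9, 24.2, 23.4 and 28.2 CPM in basal cells and 0.568 to 0.929 in HR- luminal cells. HR- luminal cells were 27.1-fold lower (log2 -4.76 ± 0.21, adjusted p = 8.13e-09). HR+ luminal cells held 4 UMIs in the wild-type control library, or 0.948 CPM (0.258 to 2.43), and none in the other 3 libraries, where 0 counts allow up to 0.968, 1.22 and 1.35 CPM. The log2 fold change of HR+ luminal against basal cells was -6.29 ± 0.43 (adjusted p = 5.40e-07), a size that rests on those 4 UMIs. HR- and HR+ luminal cells differed by 1.53 ± 0.73 (adjusted p = 0.086), which missed the threshold. The endothelial markers summed to 4.92 to 8.10 CPM in basal cells and to 4.62 to 7.61 in HR+ luminal cells, and their part in the basal level of Tspan18 was not tested.

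Of the broadly expressed members, Cd81, an organiser of immune and epithelial surface complexes, had 950, 1018, 1021 and 1023 CPM in HR- luminal cells, 401 to 585 in basal and 386 to 477 in HR+ luminal cells. Its log2 fold change was 1.16 ± 0.08 against basal cells (adjusted p = 3.33e-07) and 1.38 ± 0.08 against HR+ luminal cells (adjusted p = 1.03e-07). Cd9, which shares partner proteins with Cd81, went the other way, with 534 to 566 CPM in HR- luminal, 751 to 887 in basal and 1473 to 2210 in HR+ luminal cells. The HR- luminal level of Cd9 was under the HR+ luminal one by log2 -1.53 ± 0.07 (adjusted p = 1.31e-08) and under the basal one by -0.46 ± 0.07 (adjusted p = 1.50e-04), the latter short of 1.5-fold. HR+ luminal cells were above basal cells by 1.08 ± 0.07 (adjusted p = 3.80e-07).

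Cd63, a tetraspanin of late endosomes and secreted vesicles, had 293 to 325 CPM in HR- luminal, 581 to 630 in basal and 725 to 835 in HR+ luminal cells. Cd151, which binds laminin receptors of the integrin family, had 44.1 to 49.5, 104 to 113 and 116 to 140 CPM. Both were called lower in HR- luminal than in basal cells, Cd63 by log2 -0.84 ± 0.06 and Cd151 by -1.09 ± 0.05 (adjusted p = 2.73e-07 and 1.54e-08). Cd82, known as a brake on cell migration, had 68.9 to 73.6 CPM in HR- luminal, 31.4 to 41.7 in basal and 92.4 to 141 in HR+ luminal cells. Its HR- luminal level was above the basal one by log2 1.10 ± 0.08 (adjusted p = 5.39e-07) and under the HR+ luminal one by -0.59 ± 0.08 (adjusted p = 8.06e-05), just past 1.5-fold.

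By count, 5 of the 9 members were called higher and 3 lower in HR- luminal than in basal cells, where 19.8% of all genes tested were called higher and 19.7% lower. Against HR+ luminal cells 3 members were higher and 5 lower in HR- luminal cells, beside 23.2% and 19.7% of all genes. HR+ luminal cells had 3 members higher and 1 lower than basal cells, beside 15.2% and 18.1%. The median size of the log2 fold change over the members was 1.16, 1.53 and 0.87 in these 3 comparisons, against 0.45, 0.53 and 0.41 over all genes tested. Without the TMM scale factors the median of all genes moved by -0.19 for HR- against HR+ luminal cells and by -0.13 for HR- luminal against basal cells. The share of called genes that were higher then fell from 54.1% to 41.8% in the former comparison. The members' directions were the same there, and Cd9 came to pass 1.5-fold against basal cells (log2 -0.59).

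**Figure D2:**
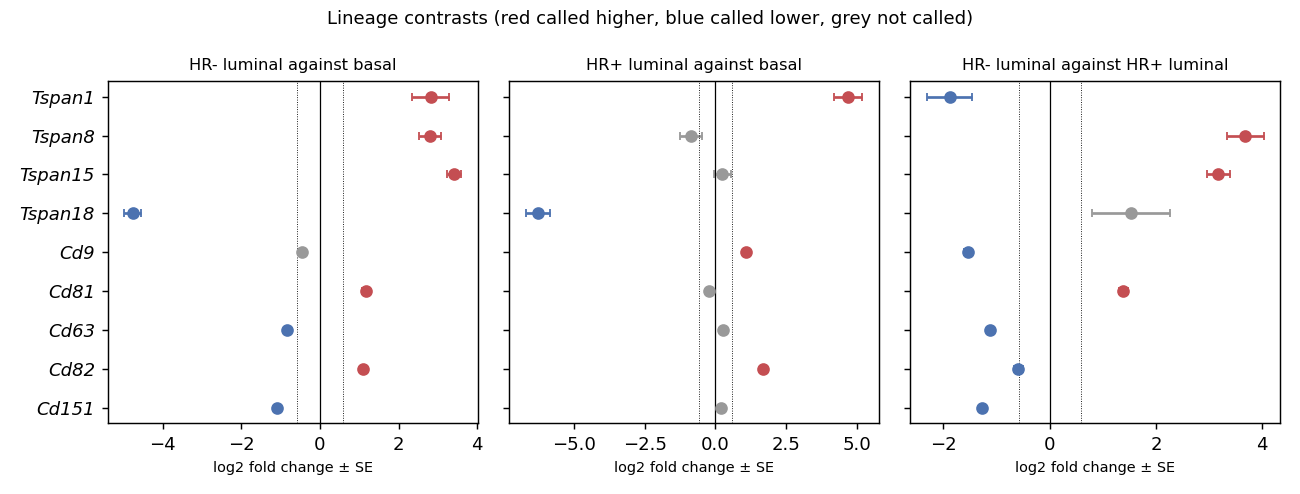
Log2 fold change of each member in the 3 lineage comparisons (horizontal axis, log2 fold change with 1 SE from edgeR; dotted lines mark 1.5-fold). Red points were called higher, blue points lower and grey points neither, and Tspan18 lies at -4.76 and -6.29 in the comparisons with basal cells.

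The order also held inside pools. In 14 pools with at least 20 cells of both lineages, Tspan8, Tspan15, Cd81 and Cd82 were higher in HR- luminal than in basal cells in 14 of 14, and Tspan18, Cd9, Cd63 and Cd151 were lower in 14 of 14. Tspan1 was higher in 13 of 14. The share of all genes with 1 direction in all 14 was not counted. The 2 pools left out were pool 2 of the Brca2mut/WT control, with 1 basal cell, and pool 2 of Brca2mut/WT HU, with 11 basal cells. Only 5 pools held at least 20 HR+ luminal cells, and there Tspan8 and Tspan15 were higher in HR- than in HR+ luminal cells in 5 of 5, and Tspan1 was lower in 4 of 5. The exception was pool 2 of the wild-type control, where Tspan1 had 582 CPM in HR- and 297 in 21 HR+ luminal cells.

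Tspan15 belongs to the subgroup of tetraspanins that bind ADAM10, and the other genes of that subgroup were set beside it. Tspan14 and Tspan33 were called higher in HR- luminal than in basal cells, as Tspan15 was, but not against HR+ luminal cells. Tspan14 had 43.8 to 49.6 CPM in HR- luminal, 27.7 to 34.1 in basal and 38.8 to 47.5 in HR+ luminal cells (log2 0.77 ± 0.07 against basal cells, adjusted p = 2.98e-06). Tspan33 had 2.80 to 4.01, 0.770 to 1.46 and 3.08 to 5.94 CPM (log2 1.74 ± 0.19 against basal cells, adjusted p = 1.07e-05). Tspan17 was highest in HR+ luminal cells, with 83.1 to 104 CPM against 27.7 to 31.2 in HR- luminal cells (log2 -1.45 ± 0.12, adjusted p = 1.03e-06). Tspan5 had at least 13.6 CPM in HR- luminal and 7.88 to 12.9 in HR+ luminal cells, where it was called lower (log2 0.76 ± 0.12 for HR- against HR+ luminal cells, adjusted p = 1.94e-04). Tspan10 was at or under 0.0117 CPM. Adam10 itself was lowest in the lineage where Tspan15 was highest, with 52.6 to 55.4 CPM in HR- luminal, 83.4 to 114 in basal and 374 to 521 in HR+ luminal cells. Its log2 fold change was -2.89 ± 0.11 for HR- against HR+ luminal cells (adjusted p = 3.18e-09) and -0.68 ± 0.10 against basal cells (adjusted p = 1.40e-04).

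The known partners of the other members were set beside them. Of the 4 integrin subunits that work with Cd151, Itgb4 (33.5 to 37.0 CPM in HR- luminal, 162 to 195 in basal cells) and Itga3 (15.1 to 19.3 and 44.6 to 72.9) were lower in HR- luminal cells, as Cd151 was, by log2 -2.17 ± 0.09 and -1.69 ± 0.16 (adjusted p = 3.51e-09 and 3.00e-06). Itgb1 and Itga6 were not called against basal cells (log2 -0.33 and 0.46). Itga2, a collagen receptor, was also lower in HR- luminal than in basal cells (log2 -1.92 ± 0.22, adjusted p = 1.65e-05). Igsf8, a partner of Cd9 and Cd81, had 156 to 192 CPM in HR- luminal and 79.5 to 123 in basal cells (log2 0.99 ± 0.09, adjusted p = 2.32e-06), whereas Ptgfrn, another partner of the same pair, went the other way by -0.58 ± 0.10 and did not pass 1.5-fold. Over the 10 partner genes, 2 were higher and 5 lower in HR- luminal than in basal cells, beside 19.8% and 19.7% of all genes.

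Among the 22 other tetraspanins examined, 10 reached 20 CPM in a lineage of some library, and 15 passed the filter on low counts. In HR- luminal against basal cells 5 of these 15 were higher and 5 lower, beside 19.8% and 19.7% of all genes tested. Against HR+ luminal cells 3 were higher and 6 lower, beside 23.2% and 19.7%. Tspan7 was the one with a pattern most like that of Tspan8 and Tspan15 in these sums, with 45.3 to 51.4 CPM in HR- luminal, 10.8 to 18.7 in basal and 7.35 to 10.9 in HR+ luminal cells, and was singled out after its values were seen. Tspan13 resembled Tspan1, with 134 to 181 CPM in HR+ luminal, 50.3 to 65.4 in HR- luminal and 8.42 to 14.8 in basal cells. The leukocyte tetraspanins Cd37 and Cd53 were at or under 0.197 and 0.263 CPM.

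The second question was how members varied among HR- luminal cells, between pools and libraries. Tspan1 ranged from 5.56 to 587 CPM over the 16 pools, Tspan8 from 49.8 to 384 and Tspan15 from 15.9 to 78.0. By contrast Cd9 had 512 to 662 CPM, Cd82 62.1 to 77.8, Cd81 816 to 1190, Cd63 271 to 404 and Cd151 38.4 to 66.3. The first 3 thus spanned at least 4.91-fold, and the other 5 at most 1.73-fold. Tspan18 was at or under 1.29 CPM apart from pool 4 of Brca2mut/WT HU, with 5.97 CPM from 21 UMIs in 126 cells.

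In untreated wild-type organoids Tspan1 had 13.2, 582, 12.4 and 169 CPM in pools 1 to 4, and Tspan8 had 81.9, 308, 84.4 and 230. In the Brca2mut/WT control Tspan1 had 16.9, 587, 10.9 and 16.7 CPM, and Tspan8 had 101, 362, 64.5 and 64.2. Brca2mut/WT HU gave 21.5, 421, 8.63 and 20.5 CPM for Tspan1 and 114, 384, 86.2 and 49.8 for Tspan8. In these 3 libraries pool 2 was the highest for both genes and for Tspan15, at 52.0, 64.1 and 78.0 CPM. Wild-type HU had no such pool for Tspan8, with 112, 94.7, 101 and 103 CPM, although its pool 4 had 133 CPM of Tspan1 against 5.56 to 9.54 in the others. Pool 2 held 182, 579, 696 and 401 HR- luminal cells in library order.

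**Figure D3:**
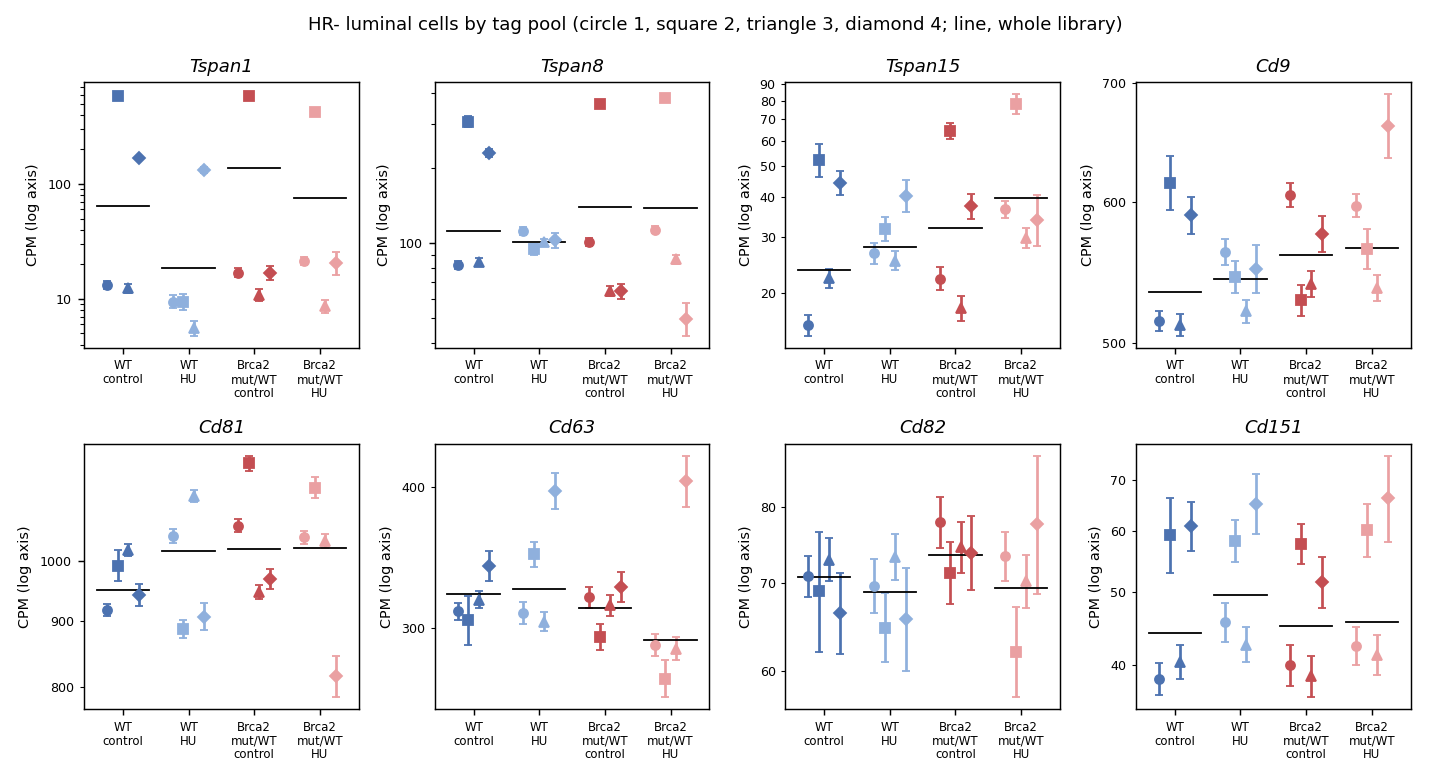
Level of 8 members in HR- luminal cells (vertical axis, CPM on a log axis) by library and tag pool, with exact Poisson 95% intervals; symbols mark pools 1 to 4 and the line the whole library. Pool 2 is highest for Tspan1, Tspan8 and Tspan15 in 3 of the 4 libraries, while Cd9, Cd82, Cd81 and Cd63 stay within a narrow range.

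Over the 16 pools, Tspan8 and Tspan1 had a Pearson r of 0.86 (log2 of CPM + 1), Tspan15 and Tspan1 0.84, and Tspan8 and Tspan15 0.77. The 5 genes most like Tspan8, of 5380 genes with a mean of at least 20 CPM, were Tmed10 (0.96), Pxdn (0.96), Blnk (0.96), Sp100 (0.96) and Hyou1 (0.96). For Tspan15 they were Tmem132a (0.97), Trim2 (0.97), Nacc2 (0.97), 1110038F14Rik (0.97) and H3f3a (0.97), and those for Tspan1 included Lmod1 (0.98), Sec11c (0.97), Pdhb (0.97) and Rnpep (0.97). Lmod1, an actin-binding protein, ranged from 3.07 to 180 CPM over pools, and Tmed10, a protein of vesicle traffic between the endoplasmic reticulum and Golgi, from 351 to 587. Pools of a library share its capture and depth, and the few high pools carry much of each correlation, which is given as a description only.

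Against this spread between pools, the conditions were compared within HR- luminal cells. With 1 library per condition there is no test of a condition, and intervals cover counting error only. Tspan1 was past 1.5-fold in all 4 comparisons, and it was the only 1 of the 8 members with at least 20 CPM (all but Tspan18) past it in each. Its log2 ratio was -0.86 for Brca2mut/WT HU against its control (95% interval -0.90 to -0.81), -1.79 for wild-type HU against its control (-1.87 to -1.71), 1.09 for the Brca2mut/WT against the wild-type control (1.05 to 1.13) and 2.03 for Brca2mut/WT HU against wild-type HU (1.95 to 2.11). Of all genes with at least 20 CPM in either library, 1.04%, 1.15%, 0.943% and 0.907% were past 1.5-fold in these comparisons.

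The Tspan1 ratios depended on which pools were counted. Without pool 2 of the Brca2mut/WT control, the Brca2mut/WT HU ratio was 2.42 and that between the controls -2.10. Without pool 2 of Brca2mut/WT HU, these cells differed from wild-type HU by -0.26. With the wider cell filter the ratios were -0.49 for Brca2mut/WT HU and 0.48 between the controls, both short of 1.5-fold. The fall in wild-type HU kept its direction when any 1 pool was left out, with log2 ratios of -3.01 to -0.78.

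Tspan8 differed by a log2 ratio of -0.01 (-0.04 to 0.03) between the Brca2mut/WT HU and control libraries. It was higher in Brca2mut/WT than in wild-type libraries by 0.32 (0.28 to 0.36) without HU and 0.46 (0.42 to 0.50) with HU, and it was lower in wild-type HU than in its control by -0.15 (-0.19 to -0.11). All of these lay within 1.5-fold. Leaving out pools one at a time moved the Brca2mut/WT HU ratio between -0.54 and 0.84 and the ratio between controls between -0.51 and 0.65. The ratio between the HU libraries then ranged from -0.08, without pool 2 of Brca2mut/WT HU, to 0.75. That of wild-type HU against its control ranged from -0.40 to 0.09. The median over the pools was 157, 102, 82.8 and 99.9 CPM, an order unlike that of the whole libraries.

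Tspan15 was lowest in untreated wild-type organoids and highest in Brca2mut/WT HU, with counting intervals that did not overlap, at 23.6 (22.6 to 24.5), 27.9 (26.8 to 29.1), 31.9 (30.7 to 33.1) and 39.5 (38.1 to 41.0) CPM. The log2 ratio of HU over control was 0.31 (0.23 to 0.39) in Brca2mut/WT and 0.25 (0.16 to 0.33) in wild type. By pools this order was not kept, with medians of 33.3, 29.2, 29.8 and 35.2 CPM and ranges that overlapped between all 4 libraries. The Brca2mut/WT HU ratio stayed above 0 without any single pool (0.04 to 0.78), and the wild-type one did not (-0.07 to 0.44).

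In HR- luminal cells Cd9, Cd81, Cd63, Cd82 and Cd151 moved little. Their largest log2 ratio of HU over control there was 0.17 for Cd151 in wild type (44.1 to 49.5 CPM), and that of Cd81 was 0.00 in Brca2mut/WT and 0.10 in wild type. Basal cells had Cd81 ratios of -0.39 (-0.46 to -0.31) in Brca2mut/WT and -0.30 (-0.34 to -0.26) in wild type. HR+ luminal cells had Cd9 ratios of 0.33 (0.28 to 0.38) and 0.35 (0.30 to 0.40), and Cd82 ratios of -0.08 and -0.42. All of these were short of 1.5-fold. In basal cells the log2 ratio of Tspan8 was 0.75 (0.56 to 0.96) for wild-type HU against its control and -1.30 (-1.62 to -0.99) for Brca2mut/WT HU against wild-type HU, the latter opposite to its HR- luminal direction. Without pool 2 of wild-type HU, an alternative chosen after the values were seen, these ratios were -0.10 and -0.52 over single-tag cells. Tspan8 in basal cells of the controls, which do not include that pool, was at log2 -1.04 (-1.45 to -0.65) for Brca2mut/WT against wild type. In HR+ luminal cells that ratio was -1.11 (-1.88 to -0.39) between the controls and 0.44 (-0.30 to 1.17) between the HU libraries. The basal levels of the controls and all HR+ luminal levels of Tspan8 were under the 20 CPM minimum. Shares of all genes past 1.5-fold were not counted in basal or HR+ luminal cells. Basal Tspan18 had a log2 ratio of 0.61 (0.38 to 0.84) for wild-type HU against its control, and 0.46 to 1.19 when any 1 pool was left out. The numbers of HR+ luminal cells were small (123 to 176 a library), and there Tspan1 had 308 CPM in the Brca2mut/WT control and 197 with HU, against 199 and 331 in wild type. Without pool 2 of wild-type HU (389 CPM, 68 cells) the wild-type log2 ratio of HU over control was 0.30.

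The last comparison asked which cells of the HR- luminal lineage carried the members. In each library the 10% of HR- luminal cells with the highest summed CPM of a gene list were set against the remaining cells, for lists of cell cycle genes, milk genes, interferon response genes, MHC class II genes, early response genes and a list of 3 genes, Tmigd1, Sez6 and Pipox. The lists were drawn up with earlier results of these cells known, so the differences are a description. In HR- luminal cells the MHC class II list rested mainly on H2-Ab1 (45.5 to 76.9 CPM) and H2-DMb1 (28.9 to 35.5). H2-DMa had 2.65 to 2.70 CPM, and H2-Aa, H2-Eb1, Cd74 and Ciita were at or under 0.535. The milk list rested mainly on Csn3 (18296 to 21471 CPM), followed by Csn1s1 (900 to 1770) and Lalba (331 to 641), with Csn2 at or under 1.20. The list of 3 genes is named after Tmigd1, which led it only in the Brca2mut/WT control. In library order, Pipox had 55.3, 26.5, 59.3 and 65.6 CPM, Sez6 30.2, 8.35, 57.1 and 56.7, and Tmigd1 15.0, 7.36, 110.7 and 43.1. The lowest summed CPM among its top 10% was 220.1, 105.5, 912.6 and 695.6, so the cut differed between libraries. Called members had to be past 1.5-fold in the same direction in all 4 libraries, on log2 of CPM + 1, and there is no test of these differences between cells of a library. For the Tmigd1 list 2 of 8 members were called higher, where 2.89% of all genes were called in either direction.

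In those cells Tspan8 was at 326, 196, 361 and 383 CPM, and in the remaining cells at 85.0, 89.5, 115 and 113. Tspan1 was at 393, 107, 607 and 456 CPM against 23.9, 8.08, 85.2 and 36.2. Both genes were thus higher in every library. Tspan15 was higher in all 4 libraries by log2 0.52 to 1.42, short of 1.5-fold in wild-type HU. The Tmigd1 cells were the deeper ones in each library, with medians of 25935 to 29718 UMIs against 24225 to 27430, and the part of depth was not tested.

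These cells were not spread evenly over pools. Pool 2 supplied 89.7% of them in the Brca2mut/WT control and 82.9% in Brca2mut/WT HU, and they made up 46.3% and 56.9% of that pool. In the wild-type libraries they came from all 4 pools, with 50.5% of pool 2 and 43.3% of pool 4 in the control. Within 10 pools that held at least 20 cells of both kinds, an added comparison chosen after the values were seen, Tspan8, Tspan15 and Tspan1 were higher in the Tmigd1 cells in 10 of 10. The median log2 ratio was 0.99 for Tspan8 (0.01 to 2.16), 0.52 for Tspan15 (0.09 to 0.95) and 1.19 for Tspan1 (0.14 to 4.20). The lowest Tspan8 ratio was that of pool 2 of the Brca2mut/WT control, where it had 363 CPM in the Tmigd1 cells and 361 in the remaining cells, so the whole pool was high there. In pool 2 of wild-type HU, Tspan8 had 300 CPM in 69 Tmigd1 cells and 66.2 in 510 others. No member was past 1.5-fold in all 10 pools, and 0.0556% of all genes were. The share of all genes higher in 10 of 10 was not counted.

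Tspan1 was the member called for 4 of the other lists. It was higher in cycling cells in all 4 libraries (log2 0.61 to 1.92; 10.6% of all genes called), and lower in the cells highest for milk genes (median -2.63; 0.878% called), for MHC class II genes (-3.18 to -1.16; 2.92%) and for early response genes (-1.55 to -0.59; 1.43%). No member was called for the interferon list, where 1.86% of genes were. Tspan8 was higher in the interferon cells of all 4 libraries, at 187.5, 117.5, 267.6 and 346.5 CPM against 103.4, 99.1, 128.5 and 118.4. It was short of 1.5-fold in wild-type HU (log2 0.24). Tspan1 had 84.3, 15.5, 378.5 and 377.9 CPM against 62.6, 19.0, 117.5 and 46.5. Pool 2 supplied 38.7% of the interferon cells in the Brca2mut/WT control and 58.9% in Brca2mut/WT HU. Within pools no member was called for any of these lists, beside 4.33% of genes for cycling, 0.474% for milk, 0.395% for interferon, 1.18% for MHC class II and 0.11% for early response. For milk the 8 pools compared were pools 1 and 3 of each library, where Tspan1 had 5.56 to 21.5 CPM. On average it was under the 20 CPM minimum, so it could not be called there. Within pools Tspan1 had no single direction for 4 of the lists. It was higher in the milk gene cells of 4 of 8 pools (median log2 -0.03) and in the interferon cells of 4 of 13 (-0.23). It was also higher in the early response cells of 6 of 14 (-0.12) and in the cycling cells of 10 of 15 (0.23). In the Brca2mut/WT control the cells highest for milk genes made up 17.1%, 1.01%, 15.4% and 2.38% of pools 1 to 4, so pool 2, the one high in Tspan1, held few of them. Depth also differed for these lists. The MHC class II cells had medians of 20622 to 24985 UMIs against 25202 to 27845 in the remaining cells, and the early response cells 20018 to 23327 against 25327 to 28184. Cycling cells had 17521 against 28079 in Brca2mut/WT HU and 25244 against 24707 in the wild-type control. The part of depth was not tested.

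Smaller differences of several members had 1 direction in every pool compared, short of 1.5-fold in at least 1 of them. The share of all genes with 1 direction in every pool was not counted, so these differences describe the members only. In 15 pools Cd63 was lower in cycling cells in 15 of 15 (median log2 -0.47, -0.84 to -0.24) and Cd81 in 15 of 15 (-0.25), while Cd9 was higher in 15 of 15 (0.30). In 9 pools Cd9 was lower in the cells highest for MHC class II genes in 9 of 9 (-0.34), as was Tspan1 (-0.58), while Tspan8 (0.23) and Cd81 (0.15) were higher in 9 of 9. Tspan15 was higher in the milk gene cells of 8 of 8 pools (0.17), where Cd63 (-0.12) and Cd151 (-0.19) were lower in 8 of 8. For Tspan8 the direction differed between pools, with a median log2 ratio of -0.11 in cycling cells within pools and 7 of 15 pools higher. It was higher in the early response cells of 14 of 14 pools (median 0.53, 0.08 to 1.06) and in the interferon cells of 12 of 13 (0.35), where Cd81 was higher in 13 of 13 (0.24).

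**Figure D4:**
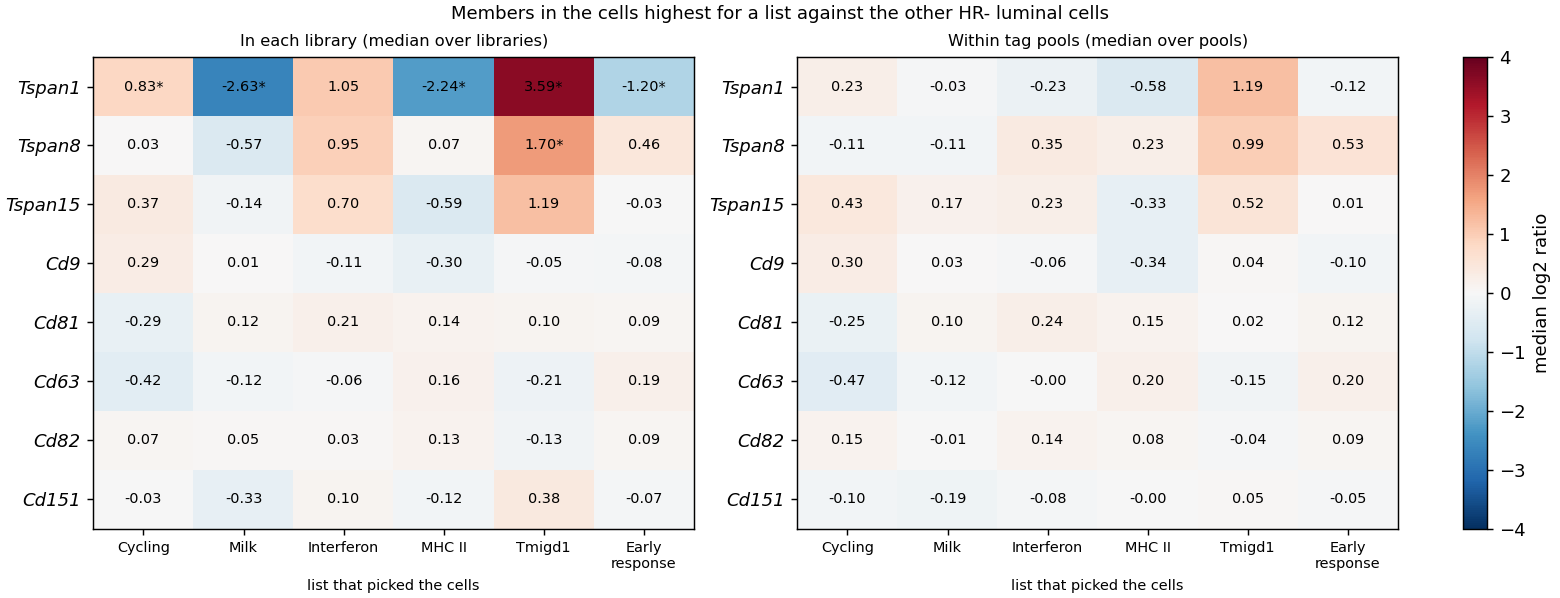
Median log2 ratio (colour and number) of 8 members in the HR- luminal cells highest for each of 6 gene lists against the remaining cells, over the 4 libraries on the left and within tag pools on the right. An asterisk marks members past 1.5-fold in one direction in all libraries, such as Tspan8 at 1.70 for the Tmigd1 list, and there is none within pools.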

How the data were processed

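Droplet single-cell RNA libraries (10x Genomics, version 3) of mouse mammary organoids were analysed, with 1 library for each of 4 conditions. The deposited values are raw counts of UMIs per gene and cell, which the authors made with Cell Ranger against mm10; their methods name version 6.0.2 and the file headers 6.1.1, so the annotation behind the counts was not settled. The authors used Seurat 4.0 in R 4.1.3. The counts hold 4 antibody tags per library, which were left out of gene totals.

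The cell filter of the study was applied (1000 to 6000 genes, under 5% mitochondrial UMIs), and no doublet caller was run. The study reports more cells after this filter than these libraries held before it, a difference that was not resolved. Of kept cells, 83.9% to 85.8% had at least 80% of their tag UMIs on 1 tag, and these formed the pools. In library order, these were 92 of 176, 100 of 146, 91 of 124 and 65 of 123 HR+ luminal cells. Of basal cells they were 524 of 709, 593 of 868, 270 of 320 and 256 of 320. Of HR- luminal cells they were 3801 of 4209, 3162 of 3457, 3139 of 3592 and 2389 of 2750. The part of mixed cells in the lineage values was not tested. Lineages were set by Krt14 and Areg within each cell. Counts were summed over cells and tested with edgeR 4.0.16 (R 4.3.3, TMM, filterByExpr, SE taken from the F statistic). The libraries are the replicates there. The genotypes come from different mice, but no cell is linked to a mouse, so p-values measure the spread between these libraries. Conditions were compared as CPM, with exact Poisson and Clopper-Pearson 95% intervals that cover counting error only. Alternatives covered DESeq2 1.42.0, scaling, filters, lineage thresholds, tags and pools. The edgeR step was tested on simulated data. The members, gene lists and comparisons were chosen with earlier results of these data known. All members are named, other tetraspanins and partners by list and a minimum of 20 CPM or by count, and the 5 most similar genes by Pearson r, of which 1 is not reported here. Python 3.11.15, scipy 1.17.1 and matplotlib 3.10.9 were used.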

Additional observations from a re-analysis of the deposited data

Results flagged for a closer look

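In HR+ luminal cells, HU went with opposite directions of Tspan1 in the 2 genotypes. The log2 ratio of HU over control was -0.65 (95% counting interval -0.80 to -0.49) in Brca2mut/WT and 0.74 (0.61 to 0.86) in wild type. Over single-tag cells the ratios were -0.56, short of 1.5-fold, and 0.73. When any 1 tag pool was left out, an alternative chosen after the values were seen, they ranged from -0.95 to -0.50 and from 0.30 to 0.86. The lowest wild-type value was that without pool 2 of wild-type HU, which held 820 Tspan1 UMIs (389 CPM) in 68 of the 146 HR+ luminal cells. Several of the Brca2mut/WT values without a pool were also short of 1.5-fold. The difference between the genotypes was not tested, since each condition is 1 library. The share of all genes with opposite directions in HR+ luminal cells was not counted.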

How the results depend on the processing

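Of 270 alternative lineage fold changes of single members, 261 kept their direction and their side of the threshold, 4 came to be called and 5 lost the call; no member's fold changed direction. HR+ luminal against basal cells gave 2 members lower in place of 1 with no filter on low counts and with DESeq2, Tspan8 being the addition. HR- against HR+ luminal cells gave 3 lower in place of 5 with a wider cell filter, without Tspan1 and Cd82; Cd82 was also lost without a filter and without either Brca2mut/WT library, and Tspan18 came to be called without the wild-type control (log2 7.74, against 0 UMIs).

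With the wider cell filter (no upper gene limit and under 10% mitochondrial UMIs, changed together), members past 1.5-fold were 0 for Brca2mut/WT HU against control, 0 between the controls and 3 between the HU libraries; with the median over pools they were 0, 2 and 1, and 2 for wild-type HU against control, in place of 1 each. Leaving out pools, over single-tag cells, gave 0 to 3 members for the first, for the controls and for the HU libraries, and 1 for wild-type HU. The Tspan1 log2 ratio then ranged from -3.16 to 2.42, from -2.10 to 2.11 and from -0.26 to 3.32, and it reversed with the median over pools, to 0.32 and -2.44, in the first 2. In the top 5% of cells 0 members were called for cycling, milk and early response and 2 for MHC class II. For the Tmigd1 list 3 were called higher in place of 2, Tspan15 being the addition (log2 0.79 to 1.51). Within tag pools, which was added after the data were seen, 0 were called for each list, and Tspan1 was under the CPM minimum for milk. Basal Tspan8 in wild-type HU against control (0.75) ranged from -0.10, without pool 2 of wild-type HU, to 1.01, also added. The cause of these changes was not tested. Shares of all genes were not counted under these alternatives, apart from those within tag pools, so the counts describe the members only.

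The lineage test pairs lineages within libraries, and no fit across conditions was made. Depth limits Tspan18 in luminal cells, and 569 HR+ luminal cells limit that lineage.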
